A study of Homo sapiens with 6 samples.

Results

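Described here are 10 genes of the intercalated disc in hiPSC-CMs, cardiomyocytes made from a human pluripotent stem cell line, exposed to alcohol with or without losartan. The disc is where the ends of neighbouring heart muscle cells meet, and the genes were chosen by symbol: 3 connexins (GJA1, GJA5 and GJC1), 5 desmosome genes (DSP, PKP2, DSG2, DSC2 and JUP) and 2 genes of the adherens junction (CDH2 and CTNNA3). All 10 were found, each in 1 row, among the 21134 genes of the deposited table, and all 10 passed the filter on low counts that left 14926 genes to test. The groups were 2 libraries of untreated cells (control), 2 exposed to alcohol at 100 mM over 24 h, and 2 exposed over 24 h to the same 100 mM alcohol plus losartan at 1 μM (called co-treated here). Losartan blocks the angiotensin II type 1 receptor. There was no group given losartan alone. All 6 libraries came from cells labelled H9, a human embryonic stem line, although the labels call the cells induced pluripotent, and the cardiomyocytes were made with small molecules. The labels number 2 repeats in each group without saying whether they were separate differentiations or cultures, so the p-values measure the spread between these libraries, which may be technical.

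Heart muscle cells are joined end to end so that they contract together and pass on current. Gap junctions are channels built from connexins, and ions cross them from cell to cell. Desmosomes fasten the desmin filaments of adjacent cells to each other, with desmogleins and desmocollins spanning the gap, plakoglobin and plakophilin beneath them and desmoplakin holding the filament. Adherens junctions tie the myofibrils to N-cadherin through catenins, and in the heart the desmosome and adherens proteins mix in a structure called the area composita. Inherited variants in desmosome genes are known causes of arrhythmogenic cardiomyopathy.

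The libraries held 4898287 to 5051448 expected counts, which are estimates of reads per gene, and levels are given as FPKM, which divides them by gene length and library total. The cells carried the cardiomyocyte label's markers, with all 10 of the list at 1 FPKM or more in every library. Their summed level was 25742 to 26200 FPKM in control, 19259 to 25454 in alcohol and 21944 to 24140 in the co-treated libraries. MYL7 was the largest part of this sum, at 14512 and 16180 FPKM in control, 12612 and 9321 in alcohol, and 10241 and 11847 in the co-treated libraries. MYL7 and TNNT2 were lower in every treated library than in control, and PLN and RYR2 were higher. The other markers of this list overlapped between control and treated libraries. MYL2, the ventricular light chain, varied within 2 groups, from 863 to 2139 FPKM in control and from 821 to 2610 in alcohol. In the co-treated libraries it was at 2478 and 2862. MYH6 was at 349 and 717 FPKM in control, 381 and 737 in alcohol, and 305 and 374 in the co-treated libraries. The 4 smooth muscle markers summed to 1689 to 1926 FPKM in control, 722 to 1451 in alcohol and 991 to 1036 in the co-treated libraries, with 4 of 4 at 1 FPKM or more. Nearly all of that sum came from ACTA2 (203 to 580 FPKM over all libraries), CNN1 (177 to 422) and TAGLN (340 to 998), and MYH11 was at 1.71 to 4.77. Of the 5 endothelial markers, PECAM1, CDH5 and VWF were under 1 FPKM in every library and the sum was 5.88 to 6.86, 7.43 to 8.53 and 8.90 to 10.5 FPKM in the 3 groups. In fibroblast markers the sum was 187 to 201, 193 to 212 and 184 to 223 FPKM with TCF21 under 1, in endoderm and epithelial markers 234 to 296, 214 to 284 and 242 to 284 with FOXA2 under 1, and in pluripotency markers 11.4 to 12.5, 12.2 to 15.2 and 10.4 to 19.3 with SOX2 under 1. At 1 FPKM or more in every library were 5 of 6 fibroblast, 6 of 9 endoderm and epithelial, 4 of 5 pluripotency and 1 of 5 endothelial markers. Over all libraries COL1A1 was at 112 to 160 FPKM, CLDN6 at 84.4 to 137, KRT19 at 57.0 to 123 and POU5F1 at 3.95 to 10.2. KDR was at 4.00 and 3.70 FPKM in control, 5.18 and 6.53 in alcohol, and 6.67 and 7.70 in the co-treated libraries. Whether cells of these other types were present, and their part in the levels given here, was not tested. In bulk RNA fewer cells of a type and less RNA per cell cannot be told apart.

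None of the 10 genes was called in any comparison by edgeR's quasi-likelihood test with Benjamini-Hochberg adjustment at 0.05, and none was called by DESeq2 or by limma. For alcohol against control 0 of 10 were called, where 0.067% of all genes tested were, and 0 had an unadjusted p under 0.05, where 11% of all genes did (5.27% higher and 5.78% lower). For co-treated against alcohol 0 of 10 were called, against 0.0134% of all genes, and GJA1 and JUP were lower at an unadjusted p under 0.05, 2 of 10 against 2.71% of all genes lower, 2.84% higher and 5.55% in either direction. For co-treated against control 0 of 10 were called, against 0.362% of all genes, and 3 had an unadjusted p under 0.05 (GJA1 and PKP2 lower, GJA5 higher), against 6.37% of all genes lower, 6.26% higher and 12.6% in either direction. Counts this small cannot be read as a result about the genes. The 3 comparisons share libraries 2 by 2 and are not independent of each other.

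**Figure D1:**
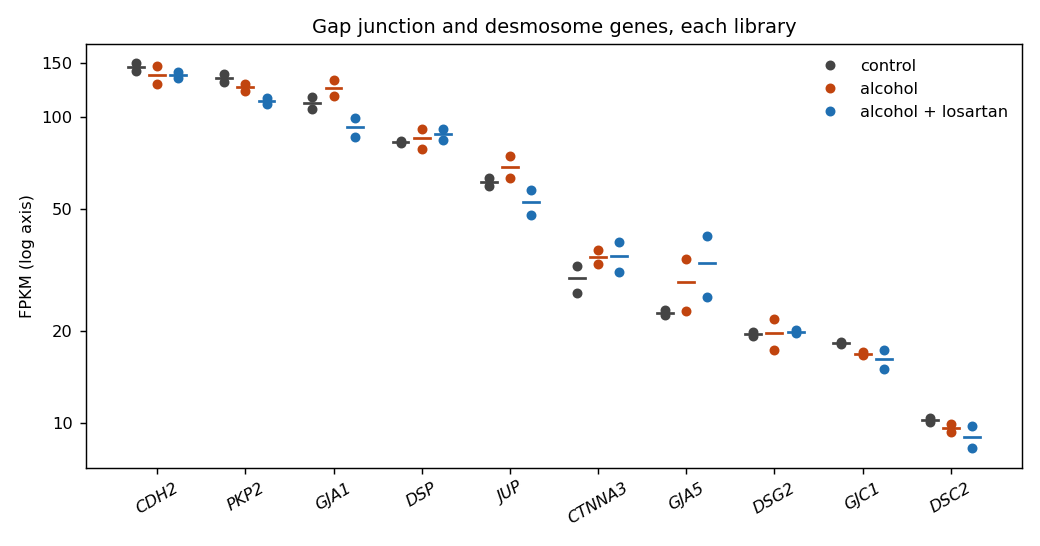
FPKM (log axis) of the 10 genes, ordered by control mean, with a point for each of the 6 libraries and a bar at the mean of each group of 2. CDH2, PKP2 and GJA1 lie above 80 FPKM in every library and DSC2 lies near 10, and the co-treated libraries of GJA1 (85.9 and 99.1) lie under all others of that gene.

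In control cells the order of level was CDH2, PKP2, GJA1, DSP, JUP, CTNNA3, GJA5, DSG2, GJC1 and DSC2, from 146 ± 5.69 FPKM (SD, n = 2) for CDH2 to 10.2 ± 0.226 (SD, n = 2) for DSC2. No neighbours in this order overlapped in control. In alcohol CDH2 and PKP2, PKP2 and GJA1, and CTNNA3 and GJA5 overlapped, and in the co-treated libraries GJA1 and DSP overlapped, as did CTNNA3 and GJA5. CDH2 was above 97.5% of the genes tested by control FPKM, and DSC2 above 57.6%.

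GJA1 encodes connexin 43, the main gap junction protein of working ventricular muscle (NCBI Gene number 2697, GRCh38.p14 chromosome 6, 121435646 to 121449727, plus strand). Its level was 106 and 116 FPKM in control, 117 and 131 in alcohol, and 85.9 and 99.1 in the co-treated libraries. Both alcohol libraries lay above both control libraries, and both co-treated libraries lay below the 4 others. The group means were 111 ± 6.54, 124 ± 10.3 and 92.5 ± 9.36 FPKM (SD, n = 2). The fitted log2 fold change was 0.12 for alcohol against control (95% interval -0.14 to 0.39, adjusted p = 0.783, edgeR). For co-treated against alcohol it was -0.43 (SE 0.12, interval -0.70 to -0.16, unadjusted p = 0.00403), which ranked 79 among the genes tested and gave an adjusted p of 0.722 by edgeR. For co-treated against control it was -0.31 (interval -0.57 to -0.04, unadjusted p = 0.0265, adjusted p = 0.317, edgeR), and -0.19 (unadjusted p = 0.174) without co-treated replicate 1. The adjusted p for co-treated against alcohol ran from 0.327 to 0.990 over the alternatives.

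GJA5 encodes connexin 40, known from the atria and the conduction system (NCBI Gene number 2702, chromosome 1, 147756199 to 147773351, minus strand). It was at 22.6 and 23.4 FPKM in control, 23.2 and 34.5 in alcohol, and 25.9 and 40.9 in the co-treated libraries. Its control libraries lay close together, and 1 alcohol library and 1 co-treated library, both numbered 2, stood well above their partners. The means were 23.0 ± 0.573, 28.8 ± 7.95 and 33.4 ± 10.6 FPKM (SD, n = 2). Against control the fitted log2 fold change was 0.28 in alcohol (interval -0.16 to 0.72, adjusted p = 0.673, edgeR) and 0.50 in the co-treated cells (SE 0.20, interval 0.06 to 0.93, unadjusted p = 0.0291, adjusted p = 0.326, edgeR). Without co-treated replicate 2 the second value was 0.11, and without co-treated replicate 1 it was 0.80. Co-treated against alcohol gave 0.21 (interval -0.22 to 0.64, adjusted p = 0.945, edgeR), which turned to -0.02 without alcohol replicate 1 and to -0.17 without co-treated replicate 2.

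GJC1 encodes connexin 45, a connexin of the early heart and of nodal tissue (NCBI Gene number 10052, chromosome 17, 44794104 to 44831364, minus strand). Its level was 18.4 and 18.1 FPKM in control, 17.1 and 16.6 in alcohol, and 17.4 and 15.0 in the co-treated libraries. All 4 treated libraries lay under both control libraries, and the co-treated range enclosed the alcohol range. The fitted log2 fold changes were -0.15 (interval -0.41 to 0.10) for alcohol against control, -0.07 (-0.33 to 0.19) for co-treated against alcohol and -0.22 (-0.48 to 0.04) for co-treated against control, and none was called.

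Shown here, as the 2 connexins with the lowest and the highest fitted change in both comparisons of the co-treated cells, are the 250 bases upstream of GJA1 and of the distal GJA5 start, from RefSeq on GRCh38.p14, read 5′ to 3′ on each gene's own strand, with motif matches in capitals. The GJA1 window is chr6:121435396-121435645 on the plus strand and the GJA5 window is chr1:147773352-147773601 on the minus strand.
GJA1: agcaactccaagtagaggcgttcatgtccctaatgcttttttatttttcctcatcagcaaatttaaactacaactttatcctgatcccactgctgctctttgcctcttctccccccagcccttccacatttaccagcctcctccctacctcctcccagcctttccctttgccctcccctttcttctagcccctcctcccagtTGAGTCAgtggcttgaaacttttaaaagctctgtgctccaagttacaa
GJA5: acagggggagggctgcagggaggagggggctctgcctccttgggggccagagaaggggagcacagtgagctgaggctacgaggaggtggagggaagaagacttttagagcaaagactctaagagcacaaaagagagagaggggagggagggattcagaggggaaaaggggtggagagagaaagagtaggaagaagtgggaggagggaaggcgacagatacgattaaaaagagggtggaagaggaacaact
The capitals in GJA1 are TGAGTCA, 48 bases before the start, a match to the AP-1 motif (TGANTCA), which 6.57% of 35116 promoter windows of the same length held. The other motifs searched, on both strands, were the GC box (GGGCGG, in 42.6% of windows), the TATA box motif (TATAAA, 10.7%), NKX2-5 (TNAAGTG, 8.73%), T-box (TCACACC, 2.76%) and a GATA factor motif (AGATAA, 9.17%), and the GJA5 window matched none of the 6. The GC content was 48% for GJA1 and 55.6% for GJA5, with a median of 58% over all windows. Windows were given for 8 of the 10 genes, 13 windows in all, and GJC1 and PKP2 had none. A match or its lack in these letters is a description of the window.

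By FPKM GJA1 was the largest of the 3 connexins in every library, and its share of their sum was lowest in the co-treated libraries. It held 72.2 and 73.6% in control, 74.4 and 72.0% in alcohol, and 66.5 and 64.0% in the co-treated libraries. The share of GJA5 was 15.3 and 14.9%, 14.8 and 18.9%, and 20.0 and 26.4% in the same order. The co-treated libraries thus had the lowest GJA1 and the highest GJA5 shares with no overlap with the other groups, while the share of GJC1 (12.5 and 11.5%, 10.9 and 9.12%, 13.5 and 9.69%) overlapped between co-treated and both other groups. The ratio of GJA1 to GJA5 was 4.72 and 4.95 in control, 5.04 and 3.81 in alcohol, and 3.32 and 2.43 in the co-treated libraries. These shares are given as a description and were not tested. They leave out GJA3, another connexin, at 24.7 and 25.3 FPKM in control, above GJA5 and GJC1 there. GJA3 was at 26.5 and 29.7 FPKM in alcohol and 26.4 and 29.7 in the co-treated libraries. Counts not divided by length gave GJA1 a share of 62.2, 63.9 and 55.9% in the 3 groups, again lowest in the co-treated libraries. On these counts the GJA5 share was 16.8% in alcohol replicate 2 and 16.9% in co-treated replicate 1, so that these groups all but touched.

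**Figure D2:**
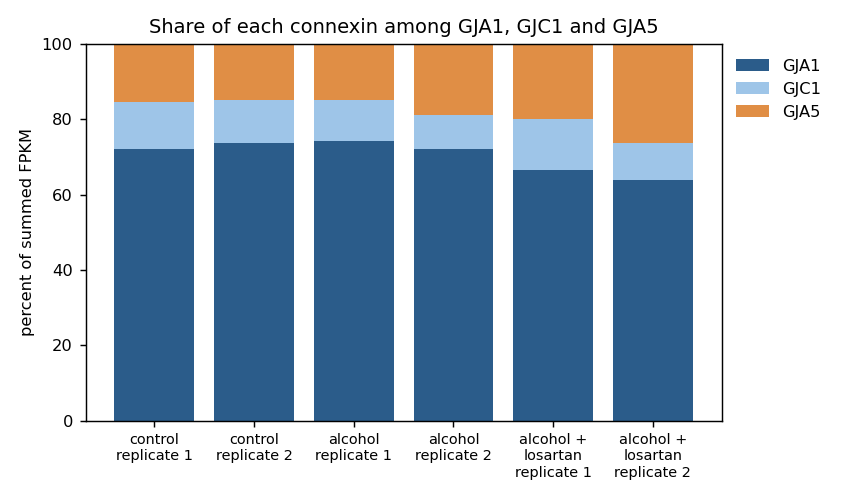
Share of each of 3 connexins in their summed FPKM (percent, stacked bars from 0) in each of the 6 libraries. The GJA1 share lies between 72.0 and 74.4% in the control and alcohol libraries and at 66.5 and 64.0% in the co-treated libraries, where the GJA5 share is 20.0 and 26.4%.

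DSP encodes desmoplakin, the link from the desmosome to desmin (NCBI Gene number 1832, chromosome 6, 7541671 to 7586714, plus strand). It was measured at 83.3 and 82.3 FPKM in control, 78.7 and 91.4 in alcohol, and 91.4 and 84.3 in the co-treated libraries. The alcohol range enclosed the control range, and the co-treated libraries lay just above control. With 3856 to 4318 counts per library DSP had the highest counts of the 10 genes, and its fitted log2 fold changes were -0.01 (interval -0.27 to 0.25), 0.06 (-0.20 to 0.32) and 0.04 (-0.22 to 0.30) in the order alcohol against control, co-treated against alcohol and co-treated against control. The intervals leave out changes as large as 1 on the log2 scale in either direction, and the first value turned to 0.03 with limma on log2(FPKM + 1).

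PKP2 encodes plakophilin 2, an armadillo protein beneath the desmosomal cadherins (NCBI Gene number 5318, chromosome 12, 32790755 to 32896777, minus strand). Its level was 138 and 130 FPKM in control, 128 and 122 in alcohol, and 110 and 116 in the co-treated libraries. By FPKM the 3 groups did not overlap, with control highest and co-treated lowest. On log2 CPM alcohol and control overlapped, with alcohol replicate 1 at 9.1702 and control replicate 2 at 9.1686. The means were 134 ± 5.63, 125 ± 4.60 and 113 ± 3.68 FPKM (SD, n = 2). The fitted log2 fold change was -0.13 for alcohol against control (interval -0.39 to 0.13), -0.15 for co-treated against alcohol (-0.42 to 0.11) and -0.28 for co-treated against control (SE 0.12, -0.55 to -0.02, unadjusted p = 0.0356, adjusted p = 0.346, edgeR).

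JUP encodes plakoglobin, which sits in both desmosomes and adherens junctions (NCBI Gene number 3728, chromosome 17, 41754609 to 41786711, minus strand). It was at 59.3 and 63.1 FPKM in control, 63.0 and 74.6 in alcohol, and 57.5 and 48.0 in the co-treated libraries. Control and alcohol overlapped narrowly near 63 FPKM, and both co-treated libraries lay under the 4 others. The means were 61.2 ± 2.68, 68.8 ± 8.24 and 52.7 ± 6.75 FPKM (SD, n = 2). The fitted log2 fold change for co-treated against alcohol was -0.40 (SE 0.13, interval -0.67 to -0.12, unadjusted p = 0.0081), rank 143 among the genes tested, with an adjusted p of 0.836 by edgeR. Alcohol against control gave 0.13 (-0.14 to 0.40) and co-treated against control -0.27 (-0.54 to 0.01), and neither was called. Without alcohol replicate 2 the unadjusted p of JUP for co-treated against alcohol was 0.0656, and without co-treated replicate 2 it was 0.0741.

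The desmosomal cadherins DSG2 and DSC2 span the gap between the cells. DSG2, the main desmoglein of the heart (NCBI Gene number 1829, chromosome 18, 31498177 to 31549008, plus strand), was at 19.2 and 19.9 FPKM in control, 17.3 and 21.9 in alcohol, and 19.6 and 20.2 in the co-treated libraries. Its 3 groups overlapped, and its fitted log2 fold changes were -0.04 (interval -0.30 to 0.23), 0.02 (-0.25 to 0.28) and -0.02 (-0.29 to 0.25). DSC2, the desmocollin of the heart (NCBI Gene number 1824, chromosome 18, 31058840 to 31102421, minus strand), was at 10.4 and 10.1 FPKM in control, 9.94 and 9.39 in alcohol, and 8.28 and 9.77 in the co-treated libraries. All 4 treated libraries of DSC2 lay under both control libraries, with fitted log2 fold changes of -0.12 (-0.44 to 0.19), -0.10 (-0.41 to 0.22) and -0.22 (-0.54 to 0.09). DSC2 had the fewest counts of the 10 genes, 215 to 277 per library. An antisense gene overlaps each on the opposite strand, DSG2-AS1 with at most 22 counts in a library and DSCAS with at most 4, and whether the libraries kept the strand is not given in the sources used here.

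Within the desmosome the balance of its parts was compared on FPKM, as a description. The 5 genes summed to 310 and 305 FPKM in control, 297 and 319 in alcohol, and 287 and 278 in the co-treated libraries. The co-treated sums were the lowest, by a margin smaller than the distance between the alcohol libraries. PKP2 was the largest of the 5 by FPKM in every library, and PKP2 over DSP was 1.65 and 1.58 in control, 1.63 and 1.33 in alcohol, and 1.21 and 1.37 in the co-treated libraries. JUP over DSP was 0.712 and 0.766 in control, 0.801 and 0.816 in alcohol, and 0.629 and 0.569 in the co-treated libraries. The ratio of JUP to DSP thus separated the 3 groups without overlap, with alcohol highest and co-treated lowest. That of PKP2 to DSP overlapped between alcohol and both other groups. DSG2 over DSC2 was 1.85 and 1.97 in control, 1.74 and 2.34 in alcohol, and 2.37 and 2.07 in the co-treated libraries, with alcohol overlapping both other groups. How often other pairs of genes separate the groups was not counted, so the separation cannot be read as a result.

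CDH2 encodes N-cadherin, which holds adjacent heart muscle cells together at the adherens junction (NCBI Gene number 1000, chromosome 18, 27932879 to 28177130, minus strand). Its level was 142 and 150 FPKM in control, 147 and 128 in alcohol, and 134 and 140 in the co-treated libraries. Alcohol overlapped both other groups, and the co-treated libraries lay just under control. The fitted log2 fold changes were -0.13 (interval -0.40 to 0.15), -0.03 (-0.31 to 0.24) and -0.16 (-0.43 to 0.12). CTNNA3 encodes αT-catenin, a catenin of the area composita that binds plakophilin 2 (NCBI Gene number 29119, chromosome 10, 65912523 to 67763594, minus strand). It was at 32.7 and 26.7 FPKM in control, 36.7 and 33.1 in alcohol, and 31.2 and 38.9 in the co-treated libraries. By FPKM the alcohol libraries of CTNNA3 lay just above control and the co-treated range overlapped both. On log2 CPM alcohol (8.56 and 8.29) and control (8.39 and 8.08) overlapped. The fitted log2 fold changes of CTNNA3 were 0.19 (interval -0.14 to 0.52), 0.03 (-0.30 to 0.36) and 0.22 (-0.11 to 0.55). With 1 library left out, the CTNNA3 value for alcohol against control ran from 0.05 without control replicate 2 and 0.06 without alcohol replicate 1 to 0.32 without alcohol replicate 2 and 0.36 without control replicate 1. That for co-treated against control ran from 0.03 without co-treated replicate 2 and 0.07 without control replicate 2 to 0.38 without control replicate 1 or co-treated replicate 1. LRRTM3 lies within CTNNA3 on the opposite strand with at most 15 counts in a library.

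**Figure D3:**
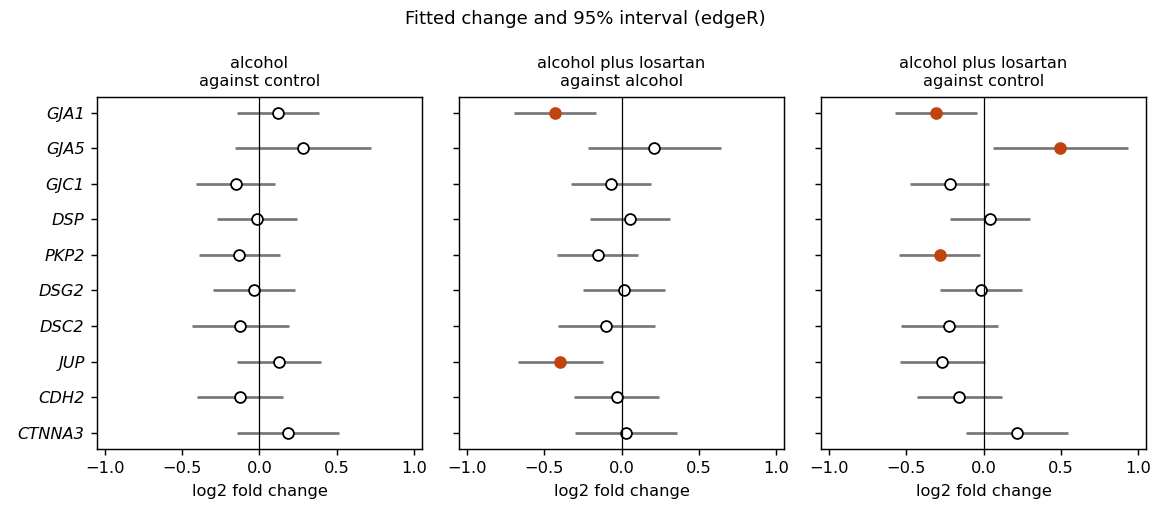
Fitted log2 fold change (points) with its 95% interval (lines) for the 10 genes in 3 comparisons, from edgeR on all 6 libraries, with points filled where the unadjusted p is under 0.05. The filled points are GJA1 (-0.43) and JUP (-0.40) for co-treated against alcohol and GJA1 (-0.31), GJA5 (0.50) and PKP2 (-0.28) for co-treated against control, and no gene was called after adjustment.

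Counted by whether groups of 2 overlapped in FPKM, 5 of the 10 genes were apart for alcohol against control (CTNNA3 and GJA1 higher, DSC2, GJC1 and PKP2 lower), against 24.7% of all genes tested higher, 17.7% lower and 42.4% in either direction. For co-treated against alcohol 3 of 10 were apart, GJA1, JUP and PKP2, all lower, against 14.3% of all genes lower, 18% higher and 32.3% in either direction. For co-treated against control 8 of 10 were apart, against 43.4% of all genes in either direction. Of these, DSP and GJA5 were higher (27.1% of all genes were higher). CDH2, DSC2, GJA1, GJC1, JUP and PKP2 were lower (16.3% were lower). On log2 CPM, CTNNA3 and PKP2 overlapped between alcohol and control, and DSP between co-treated and control. The shares over all genes were counted on FPKM only. The median fitted log2 fold change of the 10 genes was -0.03, -0.05 and -0.19 in the 3 comparisons. Over all genes tested the medians were -0.0033, 0.0023 and -0.0017. The overlap counts and the medians were not tested, and counts this small cannot be read as a result about the genes. For alcohol against control alone, a simulation with 14711 genes recovered 73.5% of genes changed by 1 on the log2 scale and 8% of genes changed by 0.5, and smaller changes were not simulated. The changed genes were drawn at random whatever their counts, so these shares are not those of the 10 genes. GJA5 alone had an unadjusted p under 0.05 for alcohol against control without alcohol replicate 1 (log2 fold change 0.52, unadjusted p = 0.0306, adjusted p = 0.332, edgeR), while without alcohol replicate 2 its value was 0.0188 (unadjusted p = 0.935), and without either control library no gene had one for co-treated against control.

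By distance between their centred log2 CPM over the 6 libraries, PKP2 and DSC2 were the closest pair (0.143), followed by DSP and DSG2 (0.167). PKP2 was the nearest member to GJC1 (0.213) and JUP the nearest to GJA1 (0.353). GJA5 was the farthest member for 8 of the other 9, CTNNA3 being the exception. Genes that vary little are close to each other by this measure whatever their direction, and the SD of log2 CPM over the 6 libraries was 0.0553 for DSP and 0.335 for GJA5.

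The deposited gene length, which is the mean of a gene's transcript lengths weighted by their estimated abundance in a library, gave a second readout for the 8 genes with 2 or more transcripts. For CDH2 it was 4208.67 and 4207.85 bases in control, 4195.42 and 4188.43 in alcohol, and 4156.76 and 4103.35 in the co-treated libraries. It was shorter at each step with no overlap, a pattern that 0.752% of the 8250 tested genes with 2 or more transcripts had, and among the 8 genes described here CDH2 was the only one. The pattern was picked after its values were seen and has no test, and the whole range was 2.52% of the mean length. In GENCODE the 2 CDH2 transcripts that match the RefSeq entries of the table are 4332 and 3737 bases long, and their starts lie 140861 bases apart. Shown because the 2 forms begin far apart are the windows before the RefSeq starts of the long form, chr18:28177131-28177380, and of the short form, chr18:28036642-28036891, both on the minus strand of GRCh38.p14, with motif matches in capitals. In GENCODE the long transcript starts further upstream, at 28177446, so that its first bases cover the whole of the first window.
CDH2 long: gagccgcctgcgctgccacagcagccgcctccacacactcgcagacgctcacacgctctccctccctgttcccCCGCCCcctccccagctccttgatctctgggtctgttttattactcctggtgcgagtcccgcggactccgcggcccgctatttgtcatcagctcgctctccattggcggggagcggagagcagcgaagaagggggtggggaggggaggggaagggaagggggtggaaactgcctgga
CDH2 short: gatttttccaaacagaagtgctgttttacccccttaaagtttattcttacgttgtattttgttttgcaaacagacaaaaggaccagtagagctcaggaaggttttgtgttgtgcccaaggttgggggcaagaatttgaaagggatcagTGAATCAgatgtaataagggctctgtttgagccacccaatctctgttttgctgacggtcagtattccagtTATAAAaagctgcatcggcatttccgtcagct
The first window has a GC content of 66% and a GC box on the reverse strand 177 bases before the start. The second has 42% and matches AP-1 (TGAATCA) 102 bases and the TATA box motif (TATAAA) 32 bases before the start, and none of these matches overlap. Of the other genes, PKP2 was longer and GJC1 shorter in both alcohol libraries than in control, where 12.6% of tested genes were longer and 13.4% shorter without overlap. DSC2 and CTNNA3 were longer in both co-treated libraries than in the other 4, where 12.4% of tested genes were longer against control and 11.6% against alcohol. Shorter lengths without overlap were found in 13.1% of tested genes for co-treated against alcohol, CDH2 and GJA5 among them, and in 13.9% for co-treated against control, where CDH2 alone of the 8 had one. The whole range was only 0.0368% of the mean length for GJC1 and 0.0250% for GJA5. It was 0.816% for PKP2, 0.541% for DSC2 and 3.81% for CTNNA3.

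**Figure D4:**
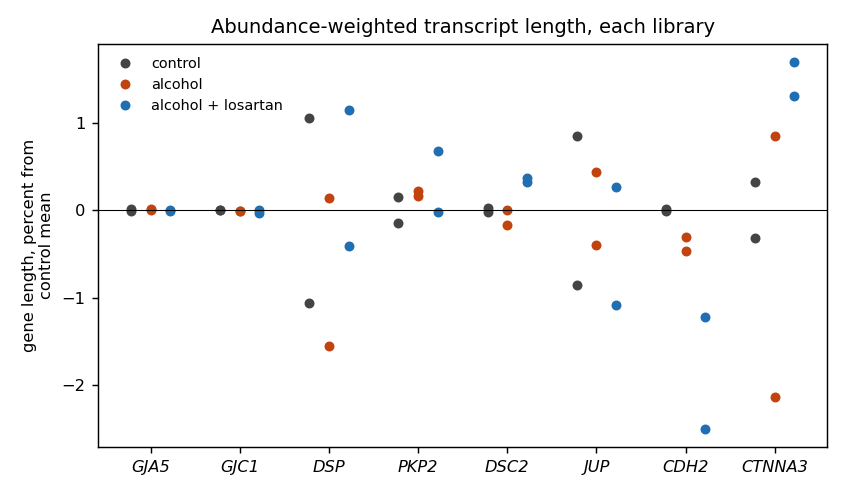
Deposited gene length as the percent difference from the control mean of each gene, for the 8 genes with 2 or more transcripts, with a point for each library. CDH2 lies at 0 in control, a little below in alcohol and lowest in the co-treated libraries (4156.76 and 4103.35 bases against a control mean of 4208.26), and DSP and JUP spread within each group.

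Other genes of the disc were read from a list of 41 connexins, desmosome, adherens junction, filament and disc-associated genes, of which 40 were listed (AFDN as MLLT4) and 31 passed the filter on low counts. None of the 31 was called in any of the 3 comparisons by edgeR. The fitted value was higher for 13 and lower for 18 in alcohol against control, and higher for 11 and lower for 20 in both comparisons of the co-treated cells. At an unadjusted p under 0.05, 4 were lower in alcohol than in control (CXADR, KRT8, KRT18 and PKP4), where 5.78% of all genes were lower, XIRP1 was lower in co-treated than in alcohol, where 2.71% were, and KRT8, KRT18 and XIRP1 were lower in co-treated than in control, where 6.37% were. None of the 4 passed without alcohol replicate 2, where DSC3 and DSG3 did, and KRT8 alone did by DESeq2 or without control replicate 1. The fitted value was higher for 19 and lower for 13 in alcohol against control without control replicate 1, and higher for 17 and lower for 15 without alcohol replicate 2. In these 2 fits 32 genes of the list were tested in place of 31. The 2 keratins, which form simple epithelial filaments, were at 599 and 572 FPKM (KRT8) and 382 and 313 (KRT18) in control. In alcohol they were at 494 and 328 (KRT8) and 309 and 193 (KRT18). In the co-treated libraries they were at 382 and 343 (KRT8) and 227 and 227 (KRT18), so that 1 alcohol library lay above and the other below both co-treated libraries. KRT8 came nearest to a call, with a log2 fold change of -0.74 for co-treated against control (SE 0.18, interval -1.12 to -0.35, adjusted p = 0.0946, edgeR), and it was called with the replicate number as a block. Without alcohol replicate 1 KRT8, KRT18 and NRAP, 3 genes, were called for alcohol against control, and without either one of the alcohol libraries KRT8 and KRT18 were called for co-treated against control. CXADR, GJA3, XIRP1, the keratins, NRAP, DSC3 and DSG3 were named after their values were seen.

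The direct partners and paralogs of the 10 genes had mostly small fitted changes. TJP1 encodes ZO-1, which binds connexin 43, and was at 44.0 and 41.6 FPKM in control, 41.0 and 39.8 in alcohol, and 36.8 and 40.0 in the co-treated libraries (log2 fold change for co-treated against control -0.21, interval -0.47 to 0.05). CTNNB1, β-catenin, which shares partners with plakoglobin, was at 175 and 186, 179 and 187, and 161 and 183 FPKM, with overlap between all groups. CTNNA1, αE-catenin and the paralog of CTNNA3, was at 165 and 156, 151 and 127, and 139 and 141 FPKM, lower in all 4 treated libraries than in control (-0.25, interval -0.53 to 0.04, for alcohol against control). PKP4, a relative of the plakophilins, was at 10.8 and 12.2, 9.17 and 9.13, and 10.2 and 12.1 FPKM, lowest in alcohol (-0.33, interval -0.64 to -0.02, unadjusted p = 0.0369, adjusted p = 0.413, edgeR). DES, the desmin that desmoplakin anchors, was at 377 and 327, 372 and 269, and 309 and 303 FPKM, and its co-treated libraries lay under control. VCL, vinculin, which links catenins to actin, was at 105 and 86.5, 107 and 73.6, and 84.5 and 83.0 FPKM, with a wide spread in alcohol. CDH1, the epithelial cadherin, stayed between 0.76 and 1.37 FPKM in all 6 libraries, far under the 128 to 150 FPKM of CDH2.

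**Figure D5:**
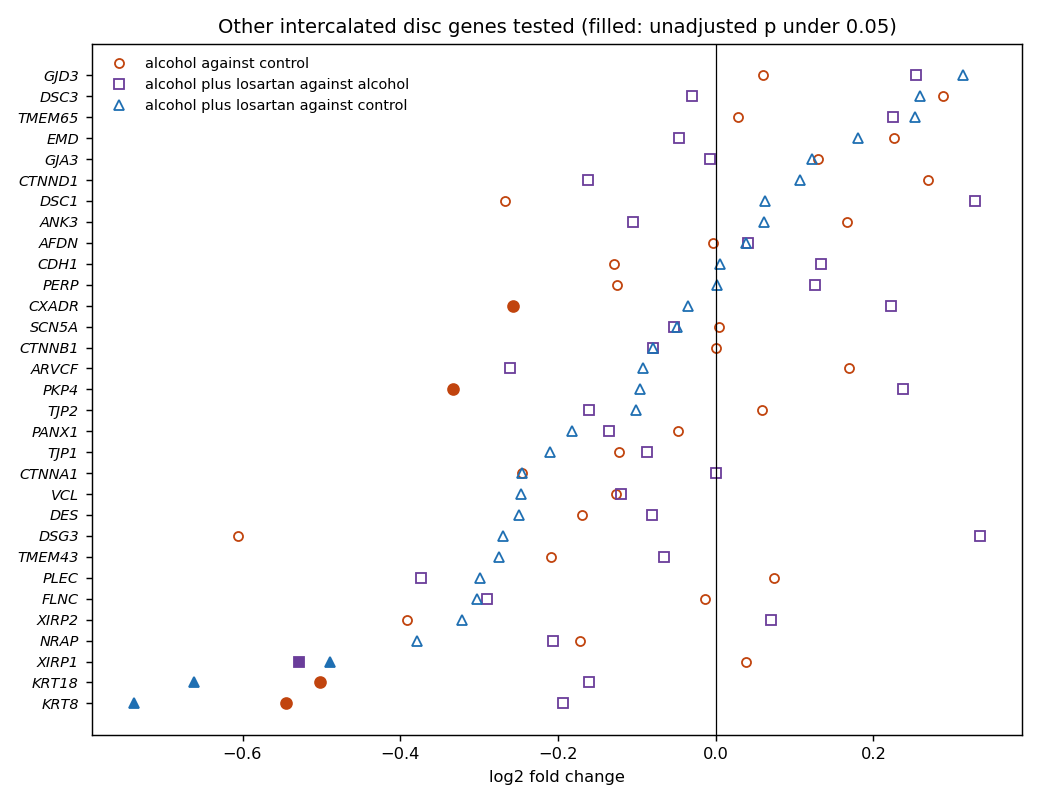
Fitted log2 fold change of 31 other intercalated disc genes in 3 comparisons (circles, squares and triangles), ordered by co-treated against control, with symbols filled where the unadjusted p is under 0.05. KRT8 (-0.74), KRT18 (-0.66) and XIRP1 (-0.49) lie lowest for co-treated against control, and no gene was called after adjustment.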

How the data were processed

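RNA from 6 libraries of hiPSC-CMs was sequenced by the authors, who deposited, per library, each gene's expected count (an RSEM estimate that need not be whole), its FPKM and a gene length, plus 1 table pairing these FPKM values with symbols. Deposited FPKM values are those estimates divided by gene length and by the library's total. The submitters' processing notes name HISAT2 2.0.4, Bowtie2 2.2.5, RSEM 1.2.12 and hg38. Of the expected counts above 0, 33.9% were not whole, among them those of DSG2, GJC1 and PKP2 in every library. Such estimates arise where reads are divided between places they map to. The deposited gene length moves with the estimated mix of transcripts, and so does the FPKM. Libraries held 4898287 to 5051448 expected counts, and no mitochondrial MT- gene was listed.

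Samples were grouped by the treatment in the labels. Expected counts were rounded and tested in 1 fit over all 6 libraries with edgeR 4.0.16 (quasi-likelihood F test, two-sided, TMM, filterByExpr, Benjamini-Hochberg over 14926 genes, called at adjusted p under 0.05) in R 4.3.3. Intervals are 95% and cover the spread between libraries. Log2 CPM used a prior count of 2. Alternatives were DESeq2 1.42.0, limma 3.58.1 on log2(FPKM + 1) and log2(FPKM + 0.1), other size factors, no filter, a minimum of 10 counts per library, a replicate block, only the groups compared, each library left out, and CPM in place of FPKM. On simulated data (14711 genes, alcohol against control) 98 genes were changed by 1 and 100 by 0.5 on the log2 scale, and 73.5% and 8% of them were called. The test made 13 false calls in that run, and in a separate run with no gene changed 3 calls. In the first run false calls were a larger share of all calls than the 0.05 set for the adjusted p.

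The 10 genes, all named with values, and the lists were chosen with earlier results of these data known. From the second list TJP1, CTNNB1, CTNNA1, PKP4, DES, VCL and CDH1 and any called gene were to be named. Positions, promoters and names are from RefSeq on GRCh38.p14, and transcript lengths from GENCODE. Proteins were not used here. Deposited GO and KEGG columns were not used.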

Additional observations from a re-analysis of the deposited data

How the results depend on the processing

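None of the 10 genes was called under any of the 14 alternatives to any of the 3 comparisons, and 2 libraries a group limit what could be called. The number with an unadjusted p under 0.05 ranged, with each library left out, from 0 to 1 for alcohol against control, from 1 to 3 for co-treated against alcohol and from 0 to 3 for co-treated against control, where limma gave 1 at either pseudocount. A group left with 1 library is assumed to vary like the others. The other disc genes called ranged from 0 to 3 for alcohol against control and from 0 to 2 for co-treated against control with a library left out, and were 2 for co-treated against control in the libraries of the 2 groups alone. Over all genes, the calls for alcohol against control, 10 in the main test, were 74 by DESeq2, 0 and 2 by limma on log2(FPKM + 1) and log2(FPKM + 0.1), 2 without a filter, 26 with at least 10 counts in every library, 3 in the 2 groups alone and 1 to 220 with a library left out. For co-treated against alcohol, with 2 calls, they were 5, 1 and 2, 1, 0, 4 and 1 to 24 in the same order, and for co-treated against control, with 54 calls, 116, 2 and 3, 15, 158 in the 2 groups alone and 2 to 184 with a library left out. With at least 10 counts in every library, the calls for co-treated against control were 78. The causes were not tested.

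The repeat numbers were taken as no pairing, since no source gives them a shared origin and the deviations of same-numbered libraries correlated at 0.114, -0.0162 and 0.0412. With the replicate number as a block, all genes called were 48, 5 and 136 in the 3 comparisons, 1 other disc gene (KRT8) was called for co-treated against control, and no call on the 10 genes changed.

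With 1 library left out the log2 fold change moved by over 1.5 times or turned for 10, 8 and 8 of the 10 genes in the 3 comparisons, the exceptions being GJA1 and JUP in co-treated against alcohol and CDH2 and PKP2 in co-treated against control. The fitted direction never turned for 7, 3 and 9 of the 10 genes in the 3 comparisons. By limma on log2(FPKM + 1) and log2(FPKM + 0.1) it turned for DSP in alcohol against control (0.0343 and 0.0346), for CDH2 in co-treated against alcohol (0.0033 at either pseudocount) and for DSG2 in co-treated against control (0.0241 and 0.0252). Every other turn came with a library left out. The log2 fold changes then ran, for alcohol against control, from -0.259 to 0.00708 for CDH2, highest without alcohol replicate 2, from -0.173 to 0.0991 for DSG2, highest without alcohol replicate 1, and from -0.0706 to 0.0532 for DSP, above 0 without control replicate 1 or alcohol replicate 1. For co-treated against alcohol they ran from -0.165 to 0.102 for CDH2 (above 0 without alcohol replicate 1 or co-treated replicate 1), -0.162 to 0.0186 for GJC1 (without co-treated replicate 2), -0.239 to 0.0287 for DSC2 (without co-treated replicate 1), -0.118 to 0.154 for DSG2 (below 0 without alcohol replicate 1 or co-treated replicate 2), -0.00983 to 0.114 for DSP (without alcohol replicate 1), -0.175 to 0.516 for GJA5 (without alcohol replicate 1 or co-treated replicate 2) and -0.155 to 0.190 for CTNNA3 (without alcohol replicate 2 or co-treated replicate 2). For co-treated against control the range was -0.0543 to 0.0154 for DSG2, above 0 without co-treated replicate 1. On CPM in place of FPKM, the share of GJA1 was 62.2, 63.9 and 55.9%, that of GJC1 24.8, 21.2 and 24.0%, that of GJA5 in control 13.0%, and the 5 desmosome genes summed to 1804, 1756 and 1677 CPM, since CPM is not divided by length.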
